A study of Mus musculus with 54 samples.

Results

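Livers of Bmal1 knockout mice were compared with wild-type livers at ZT0, the hour when the lights come on, in a series that sampled 3 genotypes at 6 times of day. The comparison rests on 6 RNA-seq libraries of the 54 in the series: 3 from BMAL1 knockout livers (KO) and 3 from WT livers, all taken at ZT0. Another 30 KO and WT libraries, 3 for each genotype at ZT4, ZT8, ZT12, ZT16 and ZT20, show what was particular to lights-on. The remaining libraries come from Liver-RE BMAL1-stop-FL mice, knockouts in which BMAL1 was restored in the liver, and enter no test here. All mice were females on a C57BL/6J background, 8 to 12 weeks old, fed normal chow ad libitum and kept under 12 h of light and 12 h of darkness. The labels call the KO animals BMAL1 knockout and do not say which part of the gene was altered or which cells lost it, and they name no littermate or cage. Each value is the deposited whole-gene level in FPKM, that is reads scaled to the length of the gene and the depth of the library. Genes were kept where the mean over the 6 ZT0 libraries reached 0.5 FPKM, which left 11818 of 18079.

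BMAL1, the product of Arntl, pairs with CLOCK or its relative NPAS2 and binds E-box sequences, switching on the Per and Cry genes, whose products then feed back to inhibit the pair. The same pair drives the REV-ERB receptors Nr1d1 and Nr1d2, which repress Arntl through ROR elements, while ROR receptors activate it, and it drives the factors Dbp, Tef and Hlf, which act on D-boxes. In mouse liver these loops give Arntl a peak near lights-on and give most E-box genes a trough then, so that a comparison of KO with WT at ZT0 meets the loops at their turning point.

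Arntl itself read 6.26, 8.33 and 6.5 FPKM in the 3 KO livers at ZT0, against 12.0, 11.6 and 11.3 FPKM in the 3 WT livers. Every KO value lay under every WT value, but the difference of -0.66 on the log2(FPKM + 1) scale (SE 0.39) did not pass the test across all genes (limma, adjusted p = 0.384). Since the altered part of the gene is not given, the whole-gene level does not check the KO label. The means of Arntl in the KO livers lay between 7.03 FPKM at ZT0 and 8.69 FPKM at ZT16. WT livers averaged 11.6 FPKM of Arntl at ZT0, 6.57 at ZT4, 3.84 at ZT8, 0.436 at ZT12, 4.89 at ZT16 and 10.7 at ZT20. In the ZT8 mean, 1 WT liver lay far above the other two. The WT values at ZT0 and ZT20 overlapped, and the lowest level, at ZT12, was far below both.

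The promoter window of Arntl is shown because it holds a ROR element, the kind of sequence that the REV-ERB and ROR receptors recognize. The window is given 5′ to 3′ from RefSeq (GRCm38.p6, chr7:113207261-113207560, plus strand, from 250 bases before the start to 50 after it), with the ROR element TAGGTCA in capitals.
Arntl: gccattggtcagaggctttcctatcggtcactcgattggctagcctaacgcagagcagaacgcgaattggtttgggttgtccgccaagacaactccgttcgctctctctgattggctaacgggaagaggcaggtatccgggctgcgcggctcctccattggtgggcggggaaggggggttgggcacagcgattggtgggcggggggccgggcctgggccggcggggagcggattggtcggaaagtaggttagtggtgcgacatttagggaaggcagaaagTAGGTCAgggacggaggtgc
Tef, a D-box factor, carries the E-box CACGTG in its window (chr15:81802423-81802722, plus strand), shown in capitals because Tef was among the clock genes that differed at ZT0.
Tef: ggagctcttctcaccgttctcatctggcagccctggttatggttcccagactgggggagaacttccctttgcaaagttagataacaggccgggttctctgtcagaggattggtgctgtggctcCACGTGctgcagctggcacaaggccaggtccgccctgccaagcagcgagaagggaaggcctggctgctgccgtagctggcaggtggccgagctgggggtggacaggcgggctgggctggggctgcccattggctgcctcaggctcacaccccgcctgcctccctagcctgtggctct
Of the 29 clock genes and genes named for their lights-on difference, 25 had such windows, 31 windows in all. On either strand the E-box CACGTG was found for 4 of these genes (Coq10b, Cry1, Per1 and Tef), the ROR element TAGGTCA for 2 (Arntl and Nfil3) and the D-box letters TTATGTA for 2 (Coq10b and Per3). Among all 32851 windows of this length, 7.15% held the E-box, 2.61% the ROR element and 2.63% the D-box. These are letter matches in a window of 300 bases and say nothing about binding.

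The 6 libraries had totals between 274353 and 413945 FPKM, and the steps between low values put their depth at about 24.7 M to 38.7 M reads. Of 15 hepatocyte markers 14 were in the table, with Alb at the top, and Xist was present while Ddx3y and Eif2s3y were at 0 in all 6 libraries. The KO ZT0 livers varied more than any other KO or WT group: their SD around the group mean was 0.35 (log2, root mean square over genes), against 0.193 to 0.272 in the other 11 groups. Across genes, KO replicate 1 correlated at 0.981 with WT replicate 1 but at 0.96 and 0.973 with the other KO livers. The tests below share 1 spread per gene across the 36 libraries and so understate the spread of the KO ZT0 group. In WT ZT8 replicate 2 the clock genes went against the label: Arntl was at 10.6 FPKM, against 0.414 and 0.563 FPKM in the other WT ZT8 livers, and that library enters every comparison with the other times.

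At ZT0, 390 genes differed between KO and WT livers (limma, adjusted p under 0.05), which is 3.3% of those tested. Of these, 151 genes (1.28%) were higher in KO and 239 genes (2.02%) were lower in KO, and 30 of the higher and 80 of the lower ones differed at least 2-fold. In a fit of the 6 ZT0 libraries alone 42 genes remained, 12 higher and 30 lower, of which 41 were among the 390, and with the replicate number as a block in that fit 188 were called, 132 of them among the 390. The 3 KO and 3 WT values did not overlap for 1846 genes (15.6%), 914 with KO above (7.73%) and 932 with KO below (7.89%). The median gene differed by 0.035 (log2). Without adjustment, 2116 of the 11818 genes had a limma p under 0.05.

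Fewer genes were called at ZT0 than at any other time except ZT4. The counts were 322 genes (2.72%) at ZT4, 665 (5.63%) at ZT8, 2023 (17.1%) at ZT12, 1152 (9.75%) at ZT16 and 854 (7.23%) at ZT20, with no test between counts. Of the 390 genes called at ZT0, 237 were also called in the same direction at 1 or more of the other times and 64 at all 5 of them, 31 higher and 33 lower. Another 153 were called in their ZT0 direction at no other time, and 19 were called at another time in the opposite direction. Of the 153, only 50 passed the test between ZT0 and the mean of the other times that is described below. A call at ZT0 alone therefore does not show that a gene differed between times. Leaving out KO replicate 1 raised the ZT0 count to 1194, and leaving out WT replicate 2 or WT replicate 3 cut it to 187 or 178. Without KO replicate 3 it was 246.

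**Figure D1:**
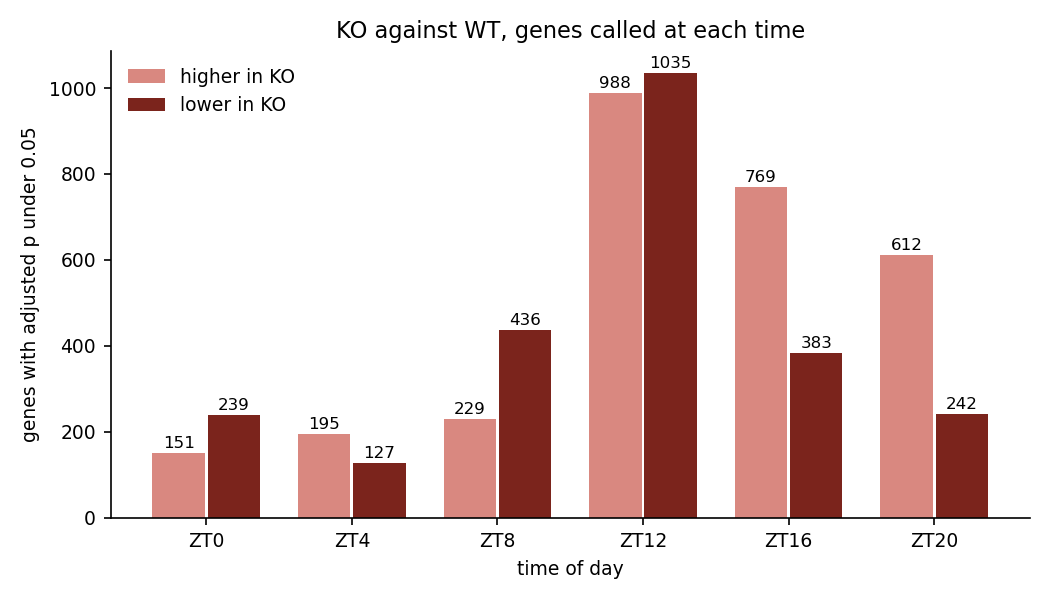
Number of genes (vertical axis) that passed adjusted p under 0.05 in KO against WT livers at each of the 6 times (horizontal axis), with light bars for genes higher in KO and dark bars for genes lower in KO. The bars at ZT0 stand at 151 and 239, and the tallest are at ZT12.

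Of the 17 clock activators, repressors, REV-ERB and ROR receptors and D-box factors tested, 4 passed at ZT0, where 3.3% of all genes did. All 4 were higher in KO, among them Per2, Cry2 and Tef. Per2, an inhibitor of the BMAL1 pair, had 5.11, 6.65 and 9.32 FPKM in KO livers, against 1.43, 1.91 and 0.969 FPKM in WT livers. All 3 KO livers lay above all 3 WT livers. The KO mean was 4.89 times the WT mean, and the difference was 1.71 (log2, SE 0.25, limma adjusted p = 0.000106). It stayed called without any 1 of the 6 libraries and in the fit of those libraries alone (adjusted p = 0.0215).

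Cry2, a cryptochrome that inhibits the same pair, had 7.25, 5.58 and 7.69 FPKM in KO livers, against 3.30, 3.95 and 4.66 FPKM in WT livers. Its difference of 0.66 (adjusted p = 0.000869) came without overlap between the groups, although it did not pass in the 6-library fit (adjusted p = 0.193). Tef had 12.4, 10.6 and 14.9 FPKM in KO livers, against 7.24, 6.78 and 5.88 FPKM in WT livers, and was higher by 0.83 (adjusted p = 0.0104). The groups did not overlap for Tef, but it lost the call in the 6-library fit (adjusted p = 0.101). With the replicate block in that fit neither Tef (adjusted p = 0.0626) nor Cry2 (adjusted p = 0.097) passed. With each of the 6 libraries left out in turn, Cry2 passed in all 6 fits and Tef in 4.

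The other 13 clock genes tested did not pass at ZT0. Dbp, the D-box factor with one of the deepest daily swings in liver, was low in every liver at this hour, at 0.962, 0.555 and 0.936 FPKM in KO and 0.764, 0.413 and 0.388 FPKM in WT. Those groups overlapped (difference 0.26, adjusted p = 0.868). At ZT12 the same gene averaged 1.39 FPKM in KO livers and 39.5 FPKM in WT livers, a difference of -4.07 (limma adjusted p = 3.47e-05). In the test between ZT0 and the mean of the other times, described below, Dbp did not pass. Of the 4 D-box factors only Tef passed it. The groups of Dbp overlapped at ZT20 too, at 1.21, 1.23 and 1.34 FPKM in KO livers and 1.35, 1.21 and 1.98 FPKM in WT livers. Nr1d2, a REV-ERB receptor, averaged 2.02 ± 0.743 FPKM in KO livers and 3.57 ± 0.948 FPKM in WT livers at ZT0 (SD, n = 3 each), with overlap. At ZT12 it averaged 1.95 FPKM in KO livers, against 33.8 FPKM in WT livers. No D-box factor and no REV-ERB or ROR receptor passed at ZT20. Cry1, the other cryptochrome, read 16.0, 21.1 and 24.2 FPKM in KO livers, against 9.98, 10.1 and 7.47 FPKM in WT livers, and its difference of 1.07 just missed the threshold (adjusted p = 0.0666) without overlap. It passed in the 6-library fit with the replicate block (adjusted p = 0.0431). Arntl2, Ciart and Bhlhe41 were under the filter and were not tested.

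**Figure D2:**
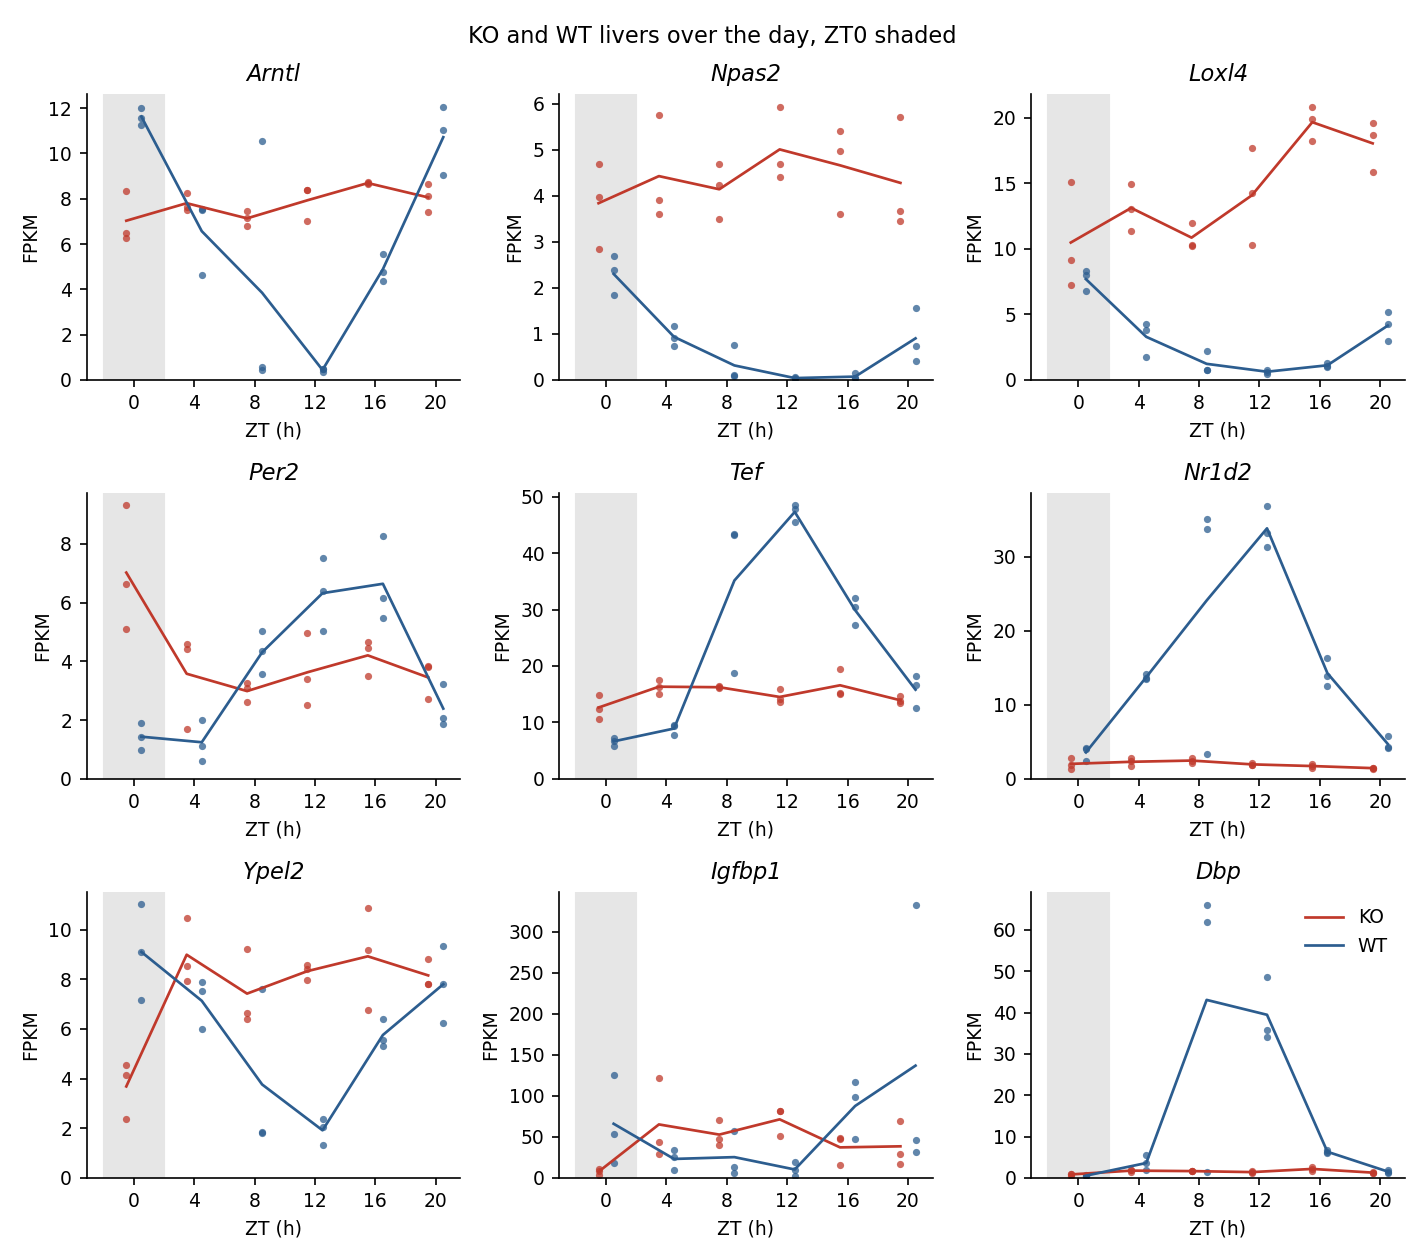
Level in FPKM (vertical axes) of 9 genes over the 6 times in ZT hours (horizontal axes), with KO in red and WT in blue, 1 point per liver and lines through the means of 3 livers. At ZT0 (shaded) KO and WT meet for Dbp, Npas2 and Loxl4 come closest, and Per2 is higher in KO. For Dbp the KO and WT points overlap at ZT20 too. The lone WT point at ZT8 far from its group is replicate 2.

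To find what was particular to lights-on, the KO minus WT difference at ZT0 was set against the mean of the KO minus WT differences at the other 5 times, in 1 test per gene. This difference of differences passed for 206 genes (1.74%), 63 higher at ZT0 (0.533%) and 143 lower at ZT0 (1.21%). Only 58 of the 206 were also among the 390. The other 148 had a ZT0 difference apart from the mean of the other 5 times, while ZT0 itself did not pass. The test does not show that ZT0 differed from each single time. For Arntl all KO values also lay below all WT values at ZT20, at 8.66, 7.39 and 8.12 FPKM against 9.06, 11.0 and 12.1 FPKM. The 206 genes were chosen on the KO shift minus the WT shift, so the direction of each shift is largely set by that choice and is only described. The level at ZT0 lay above its mean over the other times in KO livers for 5 of the 143 lower genes and in WT livers for 141 of them. For the 63 higher genes it lay above in KO livers for 59 and in WT livers for 0. For the lower genes the median shift at ZT0 was -0.311 in KO livers and 0.423 in WT livers (log2), and for the higher genes it was 0.267 in KO livers and -0.378 in WT livers. The WT shift was the larger part for 94 of the 143 and for 38 of the 63. This test was sensitive to the libraries: it called 6 genes without WT ZT0 replicate 2, 14 without WT ZT0 replicate 3, 52 without KO ZT0 replicate 3, 313 without KO ZT0 replicate 2 and 929 without KO ZT0 replicate 1. Without WT ZT8 replicate 2 it called 378, among them all 206, and without WT ZT20 replicate 2 it called 437. Once rescaled without the 20 most abundant genes it called 121 higher and 104 lower, against 63 and 143 as deposited.

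Npas2, the partner that can replace CLOCK, passed as higher in KO livers at each of the other 5 times but not at ZT0. It had 3.97, 2.85 and 4.70 FPKM in KO livers, against 1.84, 2.38 and 2.69 FPKM in WT livers at ZT0. The lowest KO liver was just above the highest WT liver, and the difference of 0.54 did not pass (limma adjusted p = 0.14). At ZT12 the means were 5.01 FPKM in KO livers and 0.0381 FPKM in WT livers, a difference of 2.53 (adjusted p = 1.01e-09). The difference of differences was -1.44 (SE 0.22, adjusted p = 0.00163). Loxl4, which encodes a lysyl oxidase-like enzyme of the extracellular matrix, behaved alike. It had 15.1, 9.11 and 7.22 FPKM in KO livers at ZT0, against 6.75, 8.33 and 7.97 FPKM in WT livers, with overlap. Over the other times it was higher in KO by 1.77 to 3.29 (log2), every adjusted p at or below 2.17e-05, and the difference of differences was -2.18 (SE 0.26, adjusted p = 3.54e-05).

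Per2 and Tef went the other way. For Per2 the difference of differences was 1.75 (SE 0.28, adjusted p = 0.00163): it was higher in KO by 1.71 at ZT0 and by 1.00 at ZT4 (adjusted p = 0.0246), and no difference passed between ZT8 and ZT20. KO livers averaged 7.03 FPKM of Per2 at ZT0 and between 2.99 and 4.21 FPKM at the other times. For Tef the difference of differences was 1.39 (SE 0.21, adjusted p = 0.00163). Tef was higher in KO at ZT0 and ZT4, by 0.83 and 0.81, and lower in KO at ZT8, ZT12 and ZT16, by -0.98, -1.64 and -0.82, each past the threshold. Ypel2 had 4.15, 2.37 and 4.53 FPKM in KO livers at ZT0, against 7.15, 9.11 and 11.1 FPKM in WT livers. It was lower in KO at ZT0 by -1.12 (adjusted p = 0.0153) and higher in KO at ZT12 by 1.70 (adjusted p = 4.8e-05), with a difference of differences of -1.85 (adjusted p = 0.00176). Npas2, Loxl4, Per2, Tef and Ypel2 each passed this last test in all 36 fits that left out 1 library.

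Other genes named for the lights-on difference were less stable. Arntl itself had a difference of differences of -1.60 (SE 0.43), which just passed (adjusted p = 0.049), held in 7 of the 36 left-out fits and passed by far without WT ZT8 replicate 2 (adjusted p = 3.38e-09). Igfbp1, which encodes an insulin-like growth factor binding protein, had 10.3, 3.93 and 8.07 FPKM in KO livers at ZT0, against 18.4, 53.9 and 125 FPKM in WT livers. All 3 KO values were below the WT values, and in the other KO groups Igfbp1 averaged 37.1 to 71.3 FPKM. Its difference at ZT0 was -2.69 (adjusted p = 0.066), which passed with a replicate block within each time (adjusted p = 0.0298) and in the 6-library fit with the block (adjusted p = 0.0356). Its difference of differences was -3.37 (SE 0.90, adjusted p = 0.049), which held in 10 of the 36 left-out fits. Chka, a choline kinase, Coq8a, needed for coenzyme Q synthesis, Osgin1, induced by oxidative stress, and Rnf125, a ubiquitin ligase, were lower in the same contrast by -2.08, -1.85, -1.74 and -1.70. For these 4 genes KO minus WT was between -0.77 and -0.45 at ZT0, none past the threshold, and between 0.98 and 1.64 over the other times.

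Higher in the same contrast were Mfsd2a, a lysophospholipid transporter (2.32), Noct, the phosphatase nocturnin (2.02), Cyp2a4 (1.88), Coq10b, a coenzyme Q binding protein (1.8), Nr1d2 (1.75) and Usp2, a deubiquitinase (1.58). Their adjusted p lay between 0.0254 and 0.0412. Coq10b had 7.01, 18 and 15.7 FPKM in KO livers at ZT0, against 7.84, 6.52 and 5.29 FPKM in WT livers. KO replicate 1 lay among the WT values and the other KO livers lay above them. At ZT12 the means were 8.69 FPKM in KO livers and 43.2 FPKM in WT livers (difference -2.18, adjusted p = 0.000198). Coq10b was the gene among these whose window held both an E-box and a D-box; the E-box is in capitals (chr1:55052520-55052819, plus strand, GRCm38.p6).
Coq10b: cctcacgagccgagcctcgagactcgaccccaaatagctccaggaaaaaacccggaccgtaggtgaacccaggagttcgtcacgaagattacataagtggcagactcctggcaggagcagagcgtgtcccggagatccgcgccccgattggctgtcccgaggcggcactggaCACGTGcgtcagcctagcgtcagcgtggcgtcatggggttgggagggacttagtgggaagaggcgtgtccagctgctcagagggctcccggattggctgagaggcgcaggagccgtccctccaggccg

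**Figure D3:**
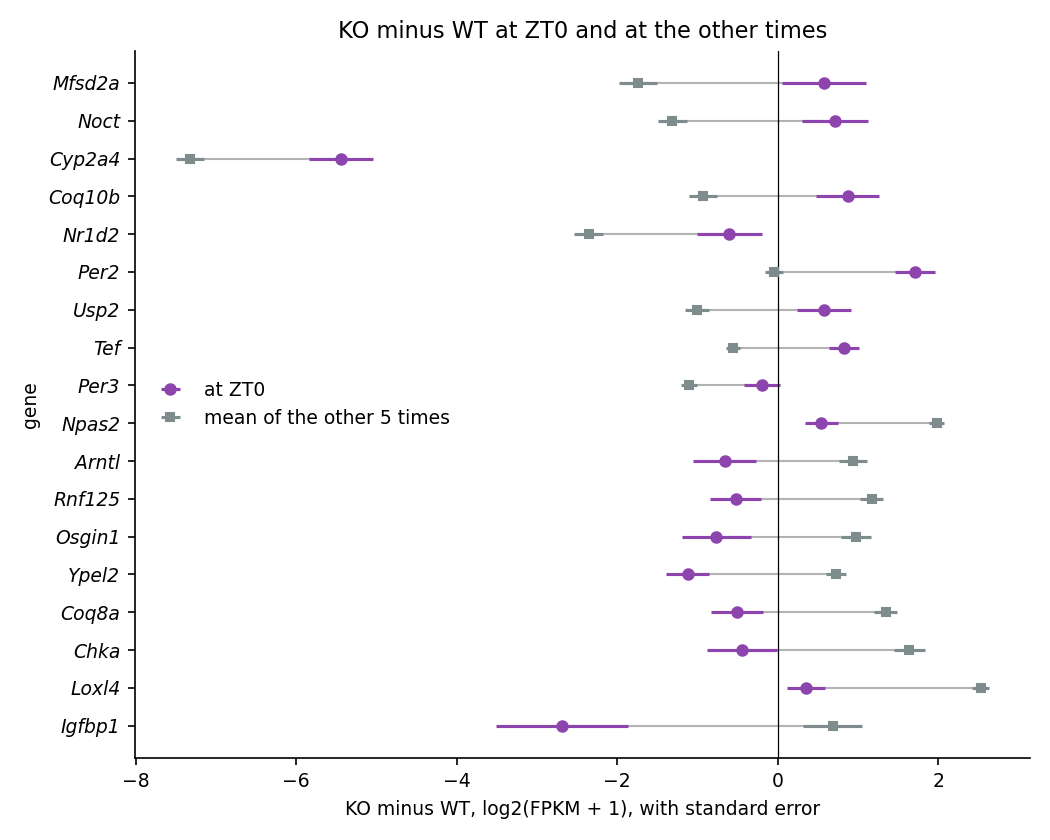
KO minus WT difference in log2(FPKM + 1) (horizontal axis, bars show the standard error) for 18 genes (vertical axis), at ZT0 as purple circles and as the mean over the other 5 times as grey squares. Arntl, Chka, Coq8a, Igfbp1, Osgin1, Rnf125 and Ypel2 are below 0 at ZT0 and above 0 over the other times. Noct, Coq10b, Usp2 and Tef are among the genes with the reverse, and Cyp2a4 is far below 0 at both.

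Of the 24 genes with the largest differences at ZT0, Per2 was the one from the clock lists. The 12 largest falls in KO livers under these conditions had differences from -5.45 to -2.98 and included Cyp2a4, Sult2a1, Cyp3a44, Cyp3a16, Sult3a1, Sult2a2, Cyp17a1, Cyp3a41a, Fabp5, Slc22a26 and Mme. Cyp2a4, a steroid hydroxylase that female mouse livers express more than male ones, had 12.5, 6.11 and 4.56 FPKM in KO livers, against 325, 369 and 365 FPKM in WT livers (adjusted p = 8.08e-10). The groups were far apart, and over the other times the difference was larger still, at -7.32.

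Mme, the peptidase neprilysin, had 1.18, 0.911 and 0.942 FPKM in KO livers, against 10.8, 16.0 and 18.8 FPKM in WT livers (difference -2.98, adjusted p = 6.29e-08). Cyp17a1, a steroid 17-alpha-hydroxylase, had 1.98, 1.01 and 3.61 FPKM in KO livers, against 41.4, 28.1 and 32.7 FPKM in WT livers (difference -3.52, adjusted p = 7.32e-05). For both genes the KO values were all far below the WT values. The sulfotransferases Sult2a1, Sult2a2 and Sult3a1 and the cytochromes Cyp3a16, Cyp3a41a and Cyp3a44 belong to families of close copies, among which the deposited values may split reads, so their single values are uncertain. WT replicate 1 was low for several of them: Cyp3a44 read 0.737, 1.71 and 0.472 FPKM in KO livers, against 12.2, 113 and 112 FPKM in WT livers. Fabp5, a fatty acid binding protein, had 19.5, 37.4 and 6.15 FPKM in KO livers, against 73.9, 330 and 179 FPKM in WT livers, and did not pass in the 6-library fit (adjusted p = 0.121).

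The 12 largest rises in KO livers under the same conditions were Spink1, Cyp2c55, Hectd2os, Cyp4a14, Lpl, Defb1, Serpina7, Raet1d, Gstm3, Gstm2, Per2 and Cd36, with differences from 3.24 to 1.58. Spink1, a serine protease inhibitor, had 8.52, 18.8 and 12.6 FPKM in KO livers, against 0.896, 0.377 and 0.164 FPKM in WT livers (adjusted p = 8.24e-05). Cyp2c55, a cytochrome of the Cyp2c family, had 68.1, 18 and 26.7 FPKM in KO livers, against 4.46, 2.30 and 1.66 FPKM in WT livers (adjusted p = 2.17e-05). Lpl, the lipoprotein lipase that frees fatty acids from circulating triglyceride and is low in healthy adult liver, had 125, 68.3 and 53.7 FPKM in KO livers, against 34.1, 7.93 and 6.30 FPKM in WT livers (adjusted p = 0.000252). In each of these 3 genes every KO liver was above every WT liver, as the choice required, and for Lpl WT replicate 1 stood well above the other WT livers.

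Cyp4a14, a fatty acid omega-hydroxylase induced by PPAR-alpha, had 179, 604 and 876 FPKM in KO livers, against 89.7, 42.2 and 105 FPKM in WT livers (difference 2.61, adjusted p = 0.0218). It did not pass in the 6-library fit (adjusted p = 0.144), nor did Lpl (adjusted p = 0.144), Serpina7, the thyroxine-binding globulin (adjusted p = 0.0608), or Cd36, a fatty acid transporter (adjusted p = 0.0639). Defb1, a beta-defensin, had 21.4, 29.9 and 23.9 FPKM in KO livers, against 3.73, 4.49 and 2.80 FPKM in WT livers (adjusted p = 2.17e-05), and its groups lay far apart. Gstm2, a glutathione S-transferase, had 89.7, 121 and 108 FPKM in KO livers, against 23.5, 35.4 and 31.0 FPKM in WT livers (adjusted p = 5.3e-05). Reads of Gstm2 and Gstm3 may be shared among the family, and those of Hectd2os may be shared with the gene on its opposite strand, since the source of the counts does not say whether strand was used. Of these 24 genes, 17 passed in the 6-library fit and 18 passed without each of the 6 libraries in turn. The choice of genes without overlap favours both counts. Only Per2 and Cyp2a4 among the 24 passed the test between ZT0 and the other times.

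**Figure D4:**
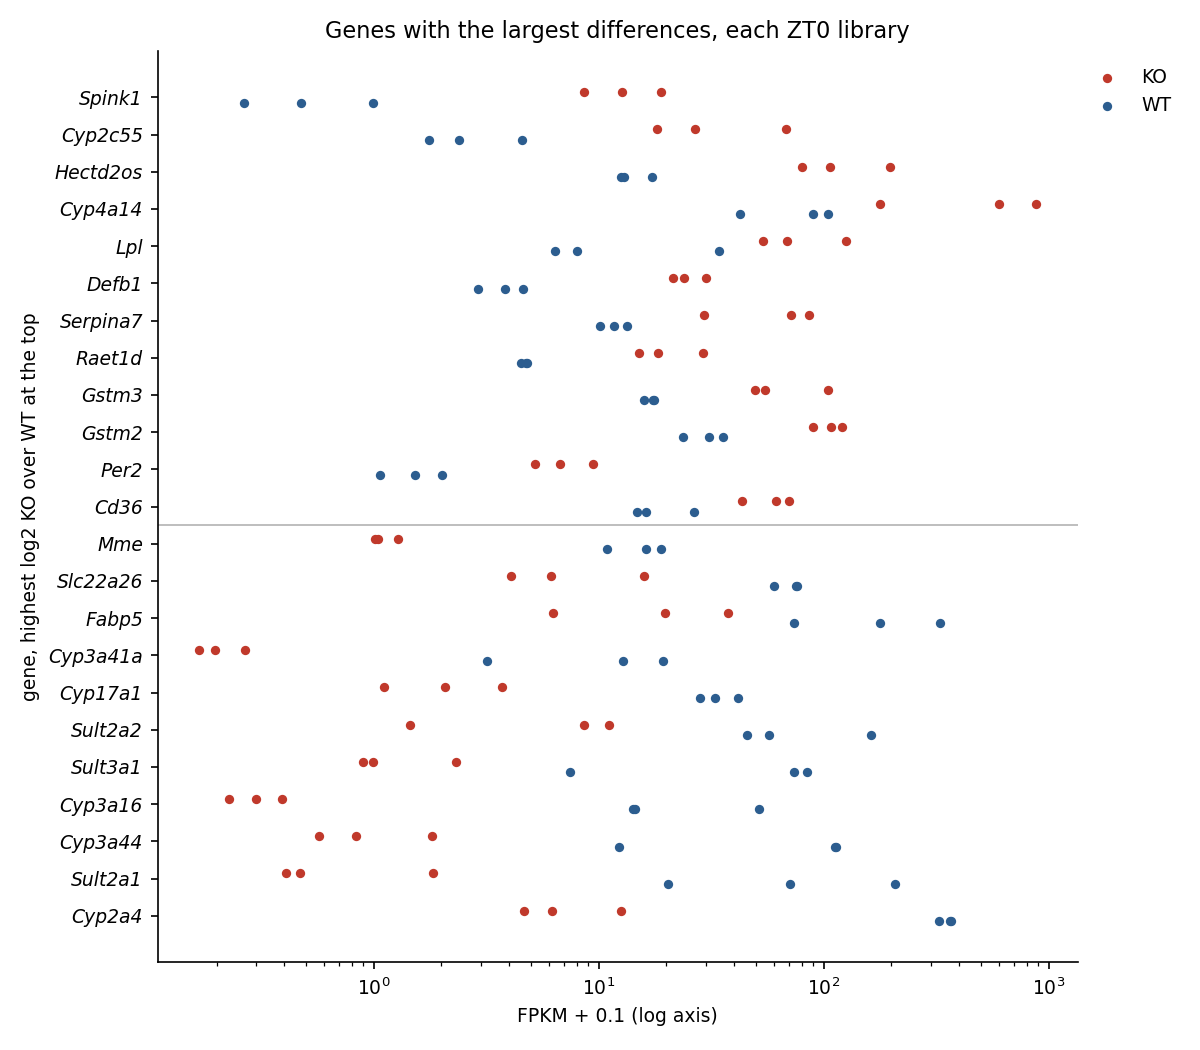
Level of the 12 genes with the largest rise (above the line) and of 11 of the 12 with the largest fall (below it) in KO livers at ZT0, 1 point per liver on a log axis of FPKM + 0.1, KO in red and WT in blue. No gene shown has overlap between the 3 KO and 3 WT points, since genes were named on that condition. The WT point nearest to KO is WT replicate 1 for several genes, among them Lpl, Sult3a1, Cyp3a44, Fabp5, Spink1, Cyp2c55 and Mme. For others, such as Cyp17a1, Defb1, Gstm2 and Per2, it is WT replicate 2.

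Genes of sex-biased liver expression were read as lists, each described by its counts beside those of all genes. Of 26 female-biased genes tested, 10 fell and 3 rose in KO livers at ZT0, with a median difference of -0.96 against 0.035 over all genes, of which 2.02% fell and 1.28% rose. Among the genes that fell were Cyp2a4, Sult2a1, Cyp17a1, Cyp3a44, Cyp2b13, Cux2, Cyp3a16, Sult3a1 and Cyp3a41a, and those that rose were Cyp4a14, Cd36 and Ntrk2. Cux2, a transcription factor found in female mouse liver, had 0.971, 0.925 and 0.361 FPKM in KO livers, against 4.50, 3.72 and 5.69 FPKM in WT livers (difference -1.69, adjusted p = 0.00272). In the mean of the other 5 times, a contrast of 30 libraries that called 33.8% of all genes, 17 of the 26 were lower and 4 higher, with a median of -1.75. At single other times 12 to 15 were lower and 2 or 3 higher.

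Of 23 male-biased genes, 0 passed at ZT0 in either direction in limma (6 at an unadjusted p under 0.05), while 11 were higher and 2 lower in KO over the other 5 times and 4 to 7 were higher at each of them. In the 6-library fit with the replicate block 2 rose and 1 fell (Serpina1e, a serpin, by -4.63, adjusted p = 0.00107). Their medians were -0.07 at ZT0 and 0.51 over the other times. The median difference of differences was -0.97, but 0 of the 23 passed that test (5 at an unadjusted p under 0.05, against 2188 of all 11818 genes). At ZT0 the count over all genes at an unadjusted p under 0.05 was 2116. The livers disagreed among themselves in both genotypes. The summed level of the 28 male-biased genes in the table was 792.8, 5766.1 and 1628.1 FPKM in KO livers. In WT livers it was 1734.5, 4082.7 and 3433.1 FPKM, so replicate 1 was lowest and replicate 2 highest in both. The correlation between same-numbered livers at ZT0 is given with the processing. Mup20, a major urinary protein, had 25.8, 444 and 117 FPKM in KO livers, against 34.6, 39.0 and 27.0 FPKM in WT livers. Elovl3, a fatty acid elongase, had 0.0213, 43.7 and 13.2 FPKM in KO livers, against 0.265, 1.66 and 2.21 FPKM in WT livers. Hsd3b5, a steroid-metabolizing enzyme, had 1.88, 111 and 9.04 FPKM in KO livers, against 0.162, 19 and 5.48 FPKM in WT livers. In all 3 genes KO replicate 2 was the highest of the 6 livers and KO replicate 1 was below at least 1 WT liver. The median of the list was 0.17 without KO replicate 1, with 4 genes higher, and -0.57 without KO replicate 2, with 2 genes lower. Mup genes are near-identical copies and their values are uncertain.

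Lipid synthesis, which in mice follows feeding in the dark phase, is the next list. Of 22 genes of fatty acid and triglyceride synthesis, 5 fell in KO livers and 0 rose, with a median difference of -0.87, and for 10 of them all KO values lay below all WT values. Over all genes 2.02% fell, 7.89% lay below in this way and the median was 0.035. Scd1, the stearoyl-CoA desaturase, had 1070, 517 and 1305 FPKM in KO livers, against 2448, 4080 and 3608 FPKM in WT livers (difference -1.88, limma adjusted p = 0.00327). Acacb, an acetyl-CoA carboxylase, had 11.4, 8.16 and 9.43 FPKM in KO livers, against 22.6, 44.4 and 52.2 FPKM in WT livers (difference -1.86, adjusted p = 0.00429). Fads1 and Fads2, desaturases of polyunsaturated fatty acids, fell by 0.77 (adjusted p = 0.00125) and by 0.93 (adjusted p = 0.00185). Pnpla3, a lipid droplet protein, had 0.585, 0.363 and 0.507 FPKM in KO livers, against 2.38, 11.2 and 7.89 FPKM in WT livers (difference -2.27, adjusted p = 0.0333).

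Fasn, the fatty acid synthase, had 51.9, 61.5 and 110 FPKM in KO livers, against 75.2, 350 and 252 FPKM in WT livers. WT replicate 1 lay among the KO livers for Fasn, as it did for Thrsp and Elovl6, and none of the 3 genes passed. Without WT replicate 1 the list had 11 genes lower. In the 6-library fit 0 of the 22 passed, and with the replicate block in that fit 5 passed as lower, without Fads1 (adjusted p = 0.125) and Fads2 (adjusted p = 0.0608). Of the 22 differences 20 were negative. Over the other 5 times 11 of the 22 were lower and 2 higher, with a median of -0.43, and at single times 0 fell at ZT4 and ZT20, 5 at ZT8, 6 at ZT12 and 3 at ZT16. In the test between ZT0 and the other times only Elovl5, an elongase, passed (-0.93, adjusted p = 0.0278).

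**Figure D5:**
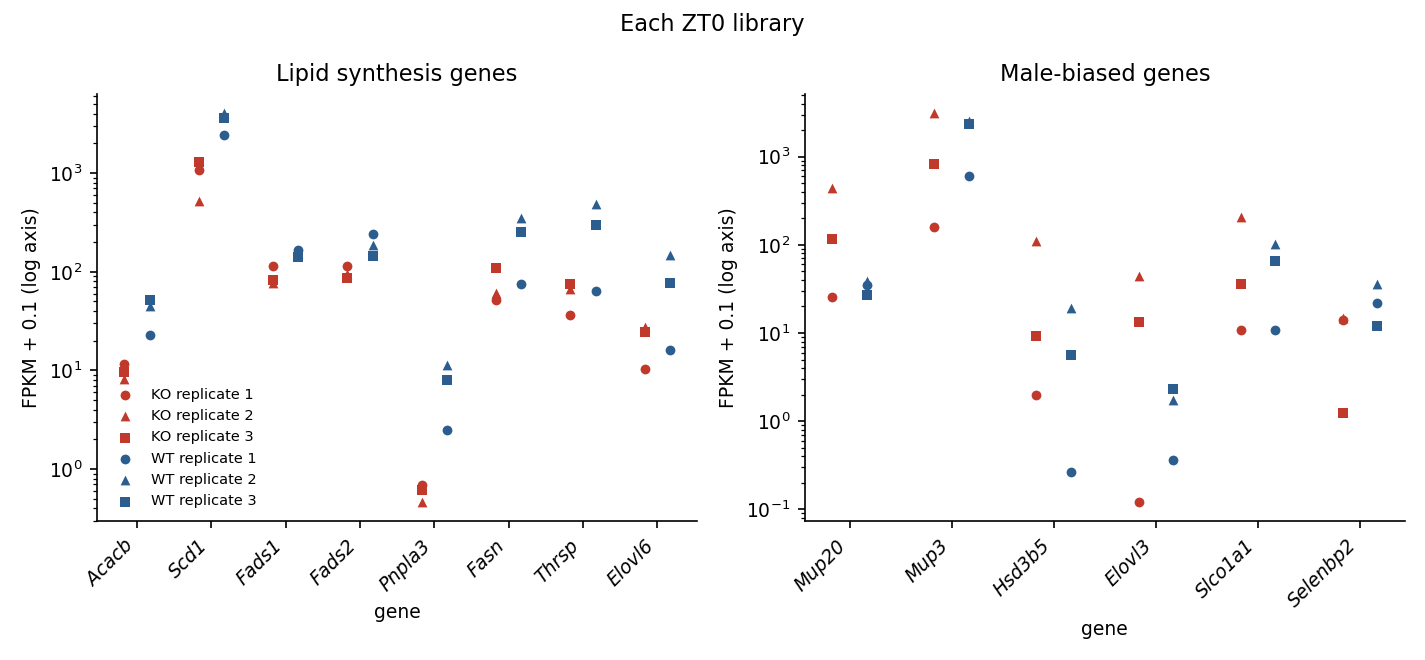
Levels at ZT0 on a log axis of FPKM + 0.1 for 8 genes of lipid synthesis (left) and 6 male-biased genes (right), KO in red and WT in blue, with circles, triangles and squares for replicates 1, 2 and 3. The KO points are below the WT points for Acacb, Scd1, Fads1, Fads2 and Pnpla3, WT replicate 1 sits with KO for Fasn and Thrsp, and KO replicate 2 is the top point for Mup20, Mup3, Hsd3b5, Elovl3 and Slco1a1.

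Of 27 genes of cholesterol synthesis, 0 rose and 1 fell in KO livers at ZT0 (Scap, the escort protein of the SREBP factors, by -0.66, adjusted p = 0.038), with a median of -0.10. Scap did not pass in the 6-library fit (adjusted p = 0.249), after quantile normalization (adjusted p = 0.0651) or after rescaling (adjusted p = 0.0586). With the replicate block in the 6-library fit it did not pass either (adjusted p = 0.158). Over the other 5 times 17 of the 27 were higher in KO and 0 lower, with a median of 0.39, in a contrast that called 33.8% of all genes. At single times 0 were higher at ZT4, 1 at ZT8, 3 at ZT12, 7 at ZT16 and 11 at ZT20. The median difference of differences was -0.61, but 0 of the 27 passed it (13 at an unadjusted p under 0.05, against 2188 of all 11818 genes). The median at ZT0 was 0.02 without WT replicate 2 and -0.45 without WT replicate 1.

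Among 16 genes of lipid uptake and lipoproteins, Lpl and Cd36 rose and Pltp and Apoa4 fell. Pltp, the phospholipid transfer protein, had 9.45, 13.9 and 12.0 FPKM in KO livers, against 28.0, 62.3 and 53.6 FPKM in WT livers (difference -1.88, adjusted p = 0.000591). Apoa4, an apolipoprotein, had 13.2, 56.2 and 62.1 FPKM in KO livers, against 156, 227 and 167 FPKM in WT livers (difference -2.29, adjusted p = 0.00229). Neither gene overlapped between the groups, and neither passed in the 6-library fit (adjusted p = 0.0543 for Pltp and 0.153 for Apoa4). In that fit 0 of the 16 passed, and with the replicate block added 2 rose and 2 fell. Of 25 genes of fatty acid oxidation and PPAR-alpha response, Cyp4a14 alone passed, and the list median was 0.18. In the 6-library fit 0 of the 25 passed, and 1 rose with the replicate block added. Of 34 genes of xenobiotic metabolism, 3 rose (Cyp2c55, Gstm2 and Gstm3) and 3 fell (Ces1d, Ugt1a1 and Cyp3a13). Ces1d, a carboxylesterase, had 106, 166 and 164 FPKM in KO livers, against 427, 503 and 514 FPKM in WT livers, with a difference of -1.75 (adjusted p = 1.71e-05).

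None of 20 bile acid genes passed at ZT0 in limma (4 at an unadjusted p under 0.05). Over all 11818 genes, 2116 had such an unadjusted p at ZT0. Nr0b2, the receptor SHP that represses bile acid synthesis, passed as lower by -1.55 with a replicate block within each time (adjusted p = 0.0143) and in the 6-library fit with the block (adjusted p = 0.0112). Between times 3 of the 20 were lower at ZT0: Hsd3b7, an enzyme of bile acid synthesis (-1.18, adjusted p = 0.02), Acox2, which shortens the side chain (-0.66, adjusted p = 0.0405), and Abcb11, the bile salt export pump (-0.86, adjusted p = 0.0497). The count was 0 without WT ZT0 replicate 2 or 3, and 1 without WT ZT0 replicate 1 or KO ZT0 replicate 3. Of 20 clock output genes 0 passed at ZT0 in limma (4 at an unadjusted p under 0.05, and 3 in the 6-library fit with the replicate block). At the single other times 1 passed at ZT4, 11 at ZT8, 14 at ZT12, 11 at ZT16 and 5 at ZT20. Single genes passed in several other lists. Irs1, an adaptor of the insulin receptor, and Hspa1b, a heat-shock protein, were higher by 0.48 (adjusted p = 0.0384) and 1.51 (adjusted p = 0.0437). Nmrk1, a nicotinamide riboside kinase, Saa4, a constitutive serum amyloid, and Ccnd1, a G1 cyclin, were lower by -0.64 (adjusted p = 0.0471), -1.28 (adjusted p = 0.00136) and -1.47 (adjusted p = 0.0496). In the 6-library fit Irs1 (adjusted p = 0.341), Hspa1b (0.455), Nmrk1 (0.234) and Ccnd1 (0.127) did not pass. With a replicate block within each time Irs1 (0.0559), Hspa1b (0.101) and Nmrk1 (0.055) did not pass either. The same held in the 6-library fit with the block, at 0.224, 0.295 and 0.103. In that blocked fit 5 of 21 acute phase genes were lower. Ccnd1 also missed the threshold in 5 other settings of the fit, among them the fit of all 54 libraries (adjusted p = 0.0817). None of 27 interferon response genes passed at ZT0 (6 at an unadjusted p under 0.05). Of the 27 differences 21 were negative, against 5141 of 11818 over all genes. Over the other 5 times, in a contrast that called 33.8% of all genes, 11 of the 27 were lower in KO and 0 higher. At ZT12, where 17.1% of all genes were called, 9 were lower. The median of the list was -0.27 at ZT0 and -0.19 over the other times.

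Markers of other cell types were set beside these results. None of 14 macrophage, 15 endothelial and 14 stellate cell markers tested passed at ZT0 in limma. Of these, 0, 2 and 1 had an unadjusted p under 0.05, against 2116 of all 11818 genes. Over the other 5 times, in a contrast that called 33.8% of all genes, 10 of the 14 macrophage markers were lower in KO and 0 higher. Their median was -0.36 there and -0.18 at ZT0, where 11 of the 14 differences were negative. In the same contrast 1 endothelial marker was higher and 1 lower, and 1 stellate cell marker was higher and 4 lower. In the 6-library fit with the replicate block 1 endothelial marker, Lyve1 (adjusted p = 0.0321), and 1 stellate cell marker passed. Of 8 cholangiocyte markers 3 were above the filter, and Sox9 among them was higher in KO, at 1.98, 2.74 and 2.14 FPKM against 0.994, 1.06 and 1.09 FPKM in WT livers (difference 0.67, adjusted p = 0.012), but it did not pass in the 6-library fit (adjusted p = 0.0814). With the replicate block in that fit 1 of the 3 was higher. The summed level of the 8 was 79.2, 47.6 and 20.3 FPKM in KO livers and 14.2, 21.0 and 22.3 FPKM in WT livers, and the part of these cells in the results was not tested. Of 10 adipocyte markers 4 were tested and 0 passed in limma, with 3 at an unadjusted p under 0.05. Their summed level was 340, 408 and 319 FPKM in KO livers, against 921, 804 and 629 FPKM in WT livers, without overlap, beside the fall of lipid synthesis genes. Car3, a carbonic anhydrase that hepatocytes also express, made up most of it, at 318, 388 and 306 FPKM in KO livers, against 905, 790 and 617 FPKM in WT livers. In the 6-library fit with the replicate block Car3 passed as lower (adjusted p = 0.0367). Without Car3 the sum was 22, 20.3 and 12.8 FPKM in KO livers, against 16.2, 13.9 and 12.1 FPKM in WT livers, with overlap, and Adipoq, the adiponectin gene, was at 0 in 5 of the 6 libraries. In bulk liver, more or fewer cells of a type and more or less RNA per cell cannot be told apart. Alb, the most abundant hepatocyte marker, was the only one of the 14 to pass: it made up 3.87% to 5.05% of the summed FPKM in KO livers and 8.86% to 10.5% in WT livers (difference -1.23, adjusted p = 0.00272). Over all 6 times this share ran from 3.52% to 6.56% in KO livers and from 8.85% to 13.3% in WT livers, so the gap was not particular to ZT0. At ZT0 Alb did not pass in the 6-library fit (adjusted p = 0.0645) or without the filter (adjusted p = 0.245). With the replicate block in the 6-library fit 1 of the 14 hepatocyte markers was lower. After quantile normalization, which gives the most abundant gene nearly the same value in every library, the difference for Alb was -0.34 (adjusted p = 0.385).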

How the data were processed

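RNA of 54 mouse livers was sequenced after ribosomal RNA depletion with a stranded total RNA kit, as single-end reads, per the labels' protocols. The authors deposited a single matrix of genes by libraries, its values taken here as FPKM since the file does not name its unit. CASAVA 1.8.2 and the build mm10 stand in the submitters' processing notes. No source used here gives the aligner, the annotation or any use of strand in counting. Depth was estimated from the steps between low values of 3223 single-transcript genes; 6.46% to 9.95% of values sat on a step, so it is approximate.

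A value of 1 was added to each FPKM before log2. Genes with a mean of at least 0.5 FPKM over the 6 ZT0 libraries were fitted with limma 3.58.1 (R 4.3.3), 1 mean per genotype and time over the 36 KO and WT libraries, 24 residual degrees of freedom, an intensity trend and Benjamini-Hochberg adjustment at 0.05. The spread shown by p-values is that between 3 livers per group, taken as separate mice. Scripts were tested on simulated data.

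Replicate numbers were checked for pairing. At ZT0 the deviations of KO and WT livers with the same number correlated across genes at 0.333, 0.445 and 0.162, each over 0.1, and no label says what they share. The limma fit has no block, and blocked values stand beside many, not all, of the ZT0 results whose call they change. At the other times the correlations ran from -0.174 to 0.221.

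Named genes were all clock genes tested, the 12 highest and 12 lowest differences at ZT0 past the threshold without overlap and with a mean of at least 1 FPKM in the higher genotype, the 8 highest and 8 lowest differences between ZT0 and the other times, and up to 4 genes per list with the smallest p. A few genes under this rule are not reported here and enter only the counts. Other named genes, such as Fasn, Thrsp, Elovl6, Elovl3, Hsd3b5 and those that complete a short count, were chosen after their values were seen. The comparison and the lists were chosen with earlier results of these data known. Promoter windows are from RefSeq (GRCm38.p6).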

Additional observations from a re-analysis of the deposited data

Results flagged for a closer look

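The test of the difference between ZT0 and the mean of the other 5 times picked out 18 named genes (limma, adjusted p under 0.05), each given here as KO minus WT at ZT0 minus KO minus WT over the other times, in log2. The genes with negative values were Igfbp1 (-3.37), Loxl4 (-2.18), Chka (-2.08), Coq8a (-1.85), Ypel2 (-1.85), Osgin1 (-1.74), Rnf125 (-1.7), Arntl (-1.6) and Npas2 (-1.44). Those with positive values were Per3, a period gene (0.92), Tef (1.39), Usp2 (1.58), Per2 (1.75), Nr1d2 (1.75), Coq10b (1.8), Cyp2a4 (1.88), Noct (2.02) and Mfsd2a (2.32).

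Loxl4, Ypel2, Npas2, Tef and Per2 passed in all 36 fits that left out 1 library. Per3 passed in 10 of them, Osgin1 in 9 and Nr1d2 in 23. For Per3 the level at ZT0 was 0.72, 0.373 and 0.806 FPKM in KO livers, against 0.845, 0.981 and 0.75 FPKM in WT livers, with overlap.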

How the results depend on the processing

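Of the 390 genes called at ZT0, 151 were higher and 239 lower in KO. The fit of the 6 ZT0 libraries gave 12 higher, 30 lower and 0 of the lipid synthesis genes, and with the replicate block added to it 60 and 128. Quantile normalization gave 245 higher, and rescaling without the 20 most abundant genes 232. Weights per library, added after seeing the data, gave 1957 higher, 1896 lower and 11 lipid synthesis genes. The weights were 0.285, 0.163 and 4.16 for KO ZT0 replicates 1, 2 and 3, so that replicate 3 made up most of the weighted KO mean. Leaving out 1 library gave 63 to 832 higher, 115 to 362 lower, 8 to 10 female-biased genes lower and 4 to 11 lipid synthesis genes lower.

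For ZT0 against the other times (63 higher, 143 lower), the replicate block gave 96 higher, no filter 31 and 87, quantile normalization 114 higher, rescaling 121 higher and library weights 1771 and 1955. Leaving out 1 library gave 2 to 642 higher and 4 to 297 lower. The causes were not tested.

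No called direction turned in any setting. The replicate block in the 36-library fit took the call of Nmrk1 at ZT0 (adjusted p = 0.0505), gave calls to Hspb1 and Orm1 at ZT0 and to Hlf between times, and changed no other named call. A block within each time, added after seeing the data, gave calls to Igfbp1, Nr0b2, Hspb1 and Orm1 at ZT0 and to Hlf between times. It took the calls of Irs1, Nmrk1 and Hspa1b at ZT0, and of Arntl (adjusted p = 0.0531), Per3, Osgin1, Mfsd2a, Noct and Coq10b between times. In the fit of all 54 libraries Tef missed the threshold at ZT0 (adjusted p = 0.0686). With 3 livers against 3, an exact permutation test of 1 gene cannot go below p = 0.1.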

Other observations

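The Liver-RE livers at ZT0, which enter none of the tests, are given as values. Arntl read 10.6, 7.75 and 1.91 FPKM in Liver-RE replicates 1, 2 and 3, and Dbp read 1.61, 5.83 and 15.4 FPKM, so that replicate 3 stood apart from the others in both genes. Noct read 1.65, 1.83 and 15.6 FPKM, again with replicate 3 the highest. Per2 read 2.52, 2.64 and 6.48 FPKM, where only replicate 3 lay within the range of the KO livers. Cyp2a4 read 56.6, 123 and 189 FPKM, all above the KO livers and below the WT livers. Alb read 34274, 27221 and 26913 FPKM, all above the KO livers. Spink1 read 4.15, 2.3 and 0.549 FPKM, all below the KO livers, and Ces1d read 381, 436 and 377 FPKM, all above the KO livers.

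Hspa1b, a heat-shock protein gene, varied widely among the KO livers at ZT0, at 1.51, 9.14 and 14.5 FPKM, against 3.21, 1.16 and 0.871 FPKM in WT livers. Its groups overlapped although it passed the test at ZT0.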
